A study of Schmidtea mediterranea with 58 samples.

Results

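*teneurin* of the planarian *Schmidtea mediterranea* is transcript dd_Smed_v6_5439_0_1, 1 of 28742 transcripts in the count table and 1 of the 20129 tested. It was selected by its number, which the study lists beside its *equinox*, *vwde* and *teneurin* protein sequences, and the rule used no measured value. Its level was followed in 58 libraries of polyA RNA, 29 from control animals and 29 from *equinox* RNAi animals, all of the strain CIW4. All animals ate liver mixed with double-stranded RNA (dsRNA) in 8 feedings, against the nematode gene *unc-22* in controls and against *equinox* in the others. Per the sample labels amputation followed 7 days after the last feeding, while the methods give a shorter interval. Anterior-facing wounds of the post-pharyngeal fragments were taken at 0, 3 and 6 h and at 16, 24 and 48 h post amputation (hpa), with 5 wounds pooled in each replicate. Each RNAi and time had 5 libraries, except that control at 48 hpa had 4 and so had *equinox* RNAi at 0 hpa. The labels name no separate cultures or batches, so p-values measure the spread between these pools of wounds only.

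Teneurins are large transmembrane proteins with EGF repeats in their extracellular part. They are known from flies and vertebrates for adhesion between cells, axon guidance and the matching of synaptic partners, and vertebrate teneurins bind latrophilins, a family of adhesion receptors. *equinox* encodes a predicted secreted protein with thrombospondin and EGF domains, made in the wound epidermis, and resembles teneurins through its EGF repeats. Planarian wounds switch on a set of genes within hours, and wounds that remove tissue then go on to a later phase in which neoblasts (the stem cells) gather and positional information is reset. The question was whether *teneurin* follows this wound response and whether it changes when *equinox* is inhibited.

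The start of the coding part of the *teneurin* transcript is shown because it identifies the transcript counted here and lets it be told from *equinox*. It covers transcript positions 108 to 399 with a GC content of 41.1%, and its first 97 codons translate to the start of the listed protein. The start codon is in capitals.

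teneurin dd_Smed_v6_5439_0_1, coding start: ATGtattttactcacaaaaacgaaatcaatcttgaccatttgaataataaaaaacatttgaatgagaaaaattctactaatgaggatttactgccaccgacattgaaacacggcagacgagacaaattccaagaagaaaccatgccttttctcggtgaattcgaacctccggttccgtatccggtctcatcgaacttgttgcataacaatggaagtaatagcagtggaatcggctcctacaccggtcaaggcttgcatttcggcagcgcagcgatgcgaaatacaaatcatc

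Within the first 399 bases given for each transcript, *teneurin* and *equinox* shared no run longer than 9 bases. The reads were 50 bp long. The rest of both transcripts was not examined. The study places the EGF domains of Equinox toward its C-terminal end. Whether reads from the EGF repeats could fall on both transcripts therefore cannot be judged from these first bases.

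Libraries held 1312330 to 38053378 counts (median 15070578), and 331 to 11130 of them belonged to *teneurin*. The counting error of its level was thus at most 5.50% in a library, 1 divided by the square root of the count. Levels are given as CPM, the count scaled to a common library size, after TMM scaling, which corrects each library's total for differences in composition. The *equinox* transcript itself, the RNAi target, ran from 3.18 to 19.5 CPM in control libraries. It ran from 0.753 to 4.15 CPM in the *equinox* RNAi libraries of 6 to 48 hpa. At 6 hpa the edgeR difference from control was -1.56 on the log2 scale (SE 0.51, adjusted p = 0.04999), just under 0.05. The libraries overlapped there, with 3.18 to 10.2 CPM in control and 1.59 to 4.04 CPM in *equinox* RNAi. At 16, 24 and 48 hpa they did not overlap, with differences of -2.47, -2.16 and -2.23 (adjusted p from 0.0021 to 0.01). At 0 and 3 hpa the libraries labelled *equinox* RNAi ran from 2.85 to 39.3 CPM and from 1.77 to 33.4 CPM. Control libraries of these times ran from 4.31 to 7.58 CPM and from 4.14 to 6.10 CPM. At both times the highest *equinox* RNAi library thus exceeded every control library, and the lowest lay below every control library. The mean went against the label, with an edgeR difference of 1.63 on the log2 scale at 0 hpa (SE 0.49, adjusted p = 0.0797, not called). At 3 hpa it was 1.73 (SE 0.49, adjusted p = 0.0203), both toward the libraries labelled *equinox* RNAi. At these 2 times the label, and not the level of the target, defines the group. The same holds for the 0 hpa baseline of every change against 0 hpa in the *equinox* RNAi arm. For 5 libraries, those of *equinox* RNAi replicate 1 from 3 to 48 hpa, title and time field of the labels differ, and the title was used. Control replicate 5 at 6 hpa stood farthest from its replicates among all 58 libraries, with a root mean square deviation of 0.67 on the log2 scale over 14135 transcripts, against a next highest of 0.53 in the shallowest library, control replicate 3 at 3 hpa. Markers of epidermis, muscle and neoblasts were not analysed here, so the tissue label was not checked against them.

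In control wounds *teneurin* was present at a steady level that rose modestly at 16 and 24 hpa. At 0 hpa the 5 libraries held 213, 233, 266, 250 and 256 CPM, with a mean of 244 ± 21.1 (SD, n = 5). At 3 hpa they held 211, 192, 224, 222 and 243 CPM, with a mean of 218 ± 18.9 (SD, n = 5). The ranges at 0 and 3 hpa overlapped, and the highest library at 3 hpa lay below the median at 0 hpa. At 6 hpa the values were 183, 238, 209, 216 and 384 CPM, with a mean of 246 ± 79.7 (SD, n = 5). Control replicate 5, the library that stood apart, alone was higher than every 0 hpa library, and the other 4 lay within or below the 0 hpa range.

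At 16 hpa the control libraries held 327, 323, 288.99, 278 and 343 CPM, with a mean of 312 ± 27.2 (SD, n = 5). At 24 hpa they held 305, 332, 276, 324 and 303 CPM, with a mean of 308 ± 21.5 (SD, n = 5). Every library of both times was higher than every 0 hpa library. At 48 hpa the 4 libraries held 220, 260, 236 and 296 CPM, with a mean of 253 ± 33.0 (SD, n = 4), and overlapped those of 0 hpa again.

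**Figure D1:**
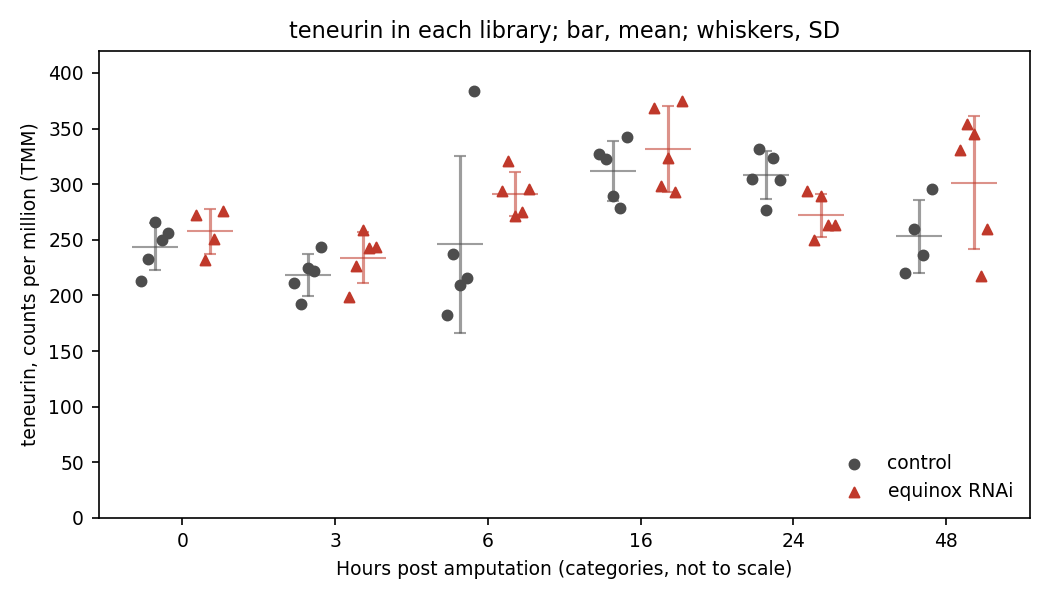
*teneurin* in each of the 58 libraries (y axis, CPM after TMM scaling) by hours post amputation (x axis, categories). Circles are control and triangles *equinox* RNAi libraries, and bars with whiskers give mean and SD of each group; control libraries at 16 and 24 hpa lie between 276 and 343 CPM, above the 0 hpa range of 213 to 266 CPM, and control replicate 5 at 6 hpa lies at 384 CPM.

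The time course of *teneurin* in control wounds passed the test as a whole (edgeR quasi-likelihood F test over 5 times, adjusted p = 0.00097), as did 56.6% of all tested transcripts. The log2 fold change against 0 hpa was 0.36 at 16 hpa (SE 0.12, 1.28-fold, 95% interval 1.08 to 1.52, adjusted p = 0.0296) and 0.34 at 24 hpa (SE 0.12, 1.26-fold, 95% interval 1.07 to 1.496, adjusted p = 0.026). By this test 18.5% of transcripts were called at 16 hpa and 33% at 24 hpa, so *teneurin* was 1 of many. The exact two-sided permutation test of log2 CPM gave p = 0.00794 at each of these times, the smallest that 5 against 5 libraries allow, and 0.0397 adjusted over 10 comparisons with 0 hpa. In these bulk libraries more cells that express *teneurin* and more RNA per cell cannot be told apart. Depth and mitochondrial share also differed in part. Control libraries held 5920170 to 17545717 counts at 0 hpa, 4785387 to 34695229 at 16 hpa and 10129410 to 38053378 at 24 hpa. Their medians were 9711286, 21872882 and 20148964. Mitochondrial transcripts took 0.339 to 0.357%, 0.342 to 0.462% and 0.305 to 0.560% of counts. These ranges overlapped that of 0 hpa, and the part of such differences in the rise was not tested. In the edgeR fit the 16 hpa call was lost without control replicate 1 or 2 at 0 hpa or without control replicate 1, 2 or 5 at 16 hpa (adjusted p from 0.0568 to 0.0954), and the 24 hpa call without control replicate 1 or 2 at 0 hpa or control replicate 2 at 24 hpa (from 0.0543 to 0.083).

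At the other times in control wounds *teneurin* passed no test against 0 hpa. The log2 fold change was -0.16 at 3 hpa (SE 0.12, adjusted p = 0.544), where 3.17% of transcripts were called. It was 0.01 at 6 hpa (SE 0.12, adjusted p = 0.978), where 8.93% were called, and 0.06 at 48 hpa (SE 0.13, adjusted p = 0.791), where 29.5% were called. The early window in which wound-induced genes rise thus held no called change of *teneurin*, with 95% intervals from 0.757- to 1.06-fold at 3 hpa and from 0.853- to 1.19-fold at 6 hpa.

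Between neighbouring times the largest control step was from 6 to 16 hpa, at 0.34 on the log2 scale (SE 0.12), which narrowly missed the threshold (adjusted p = 0.0518, 12% of transcripts called). Without control replicate 5 at 6 hpa this step was 0.56 with an adjusted p of 0.000129. The step from 24 to 48 hpa was -0.28 (SE 0.13, adjusted p = 0.194, 5.63% called). Those from 3 to 6 hpa (0.17, adjusted p = 0.39, 9.52% called) and from 16 to 24 hpa (-0.02, adjusted p = 0.953, 3.9% called) were smaller. The rise to 16 hpa therefore rests on the comparison with 0 hpa, and the return by 48 hpa was not called as a step.

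In the libraries labelled *equinox* RNAi the highest mean was also at 16 hpa, and the means of 24 and 48 hpa stood in the opposite order to control. At 0 hpa the 4 libraries held 272, 232, 250 and 276 CPM, with a mean of 257.5 ± 20.4 (SD, n = 4). At 3 hpa they held 199, 227, 259, 242 and 243 CPM, with a mean of 234 ± 22.9 (SD, n = 5). At 6 hpa they held 294, 321, 271, 275 and 295 CPM, with a mean of 291 ± 19.9 (SD, n = 5). The 3 and 6 hpa ranges did not overlap each other, and both overlapped that of 0 hpa.

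At 16 hpa *equinox* RNAi libraries held 368, 298, 324, 293 and 375 CPM, with a mean of 332 ± 38.5 (SD, n = 5), the highest of the 12 groups. At 24 hpa they held 294, 250, 289.5, 263 and 264 CPM, with a mean of 272 ± 19.1 (SD, n = 5). Every 16 hpa library was higher than every 0 hpa library, while those of 24 hpa overlapped both. At 48 hpa the values were 330, 354, 345, 217 and 260 CPM, with a mean of 301 ± 60.0 (SD, n = 5), and split into 3 high and 2 lower libraries.

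Over all times *teneurin* varied in the *equinox* RNAi arm too (F test, adjusted p = 0.0166, 21.6% of transcripts called). This call was lost when the 5 libraries with differing times were left out (adjusted p = 0.185) or placed by their time field (0.151), and without *equinox* RNAi replicate 1 at 3 hpa (0.0527). Against 0 hpa the log2 fold change at 16 hpa was 0.36 (SE 0.13, 1.29-fold, 95% interval 1.08 to 1.54), and its adjusted p of 0.0524 lay just above the threshold that 12.2% of transcripts passed. The exact permutation test gave p = 0.0159, or 0.0529 adjusted over 10. Replicate numbers deviated together in this comparison (4 pairs, correlations from 0.325 to 0.636), which was read from these same libraries. With the replicate number as a block the 16 hpa change was 0.41 with an adjusted p of 7.39e-05 in a fit of the groups compared. In the fit of all groups it was 0.38 with 0.0382. Of the 10 alternatives that kept to no single library left out, 5 gave a call, and adjusted p reached 0.136. Of the 9 edgeR fits without 1 library, 2 gave a call, and adjusted p reached 0.178. The call at 16 hpa in this arm thus depends on the processing.

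The remaining times of the *equinox* RNAi arm gave no call against 0 hpa. On the log2 scale *teneurin* stood at -0.14 by 3 hpa (adjusted p = 0.883, 1.37% of transcripts called). By 6 hpa it stood at 0.18 (adjusted p = 0.55, 5.42% called), by 24 hpa at 0.08 (adjusted p = 0.843, 5.96% called) and by 48 hpa at 0.23 (adjusted p = 0.314, 6.71% called). The 24 hpa value stands beside 0.34 in control, and the test of that difference is given with the interactions. From 24 to 48 hpa the mean was 272 and then 301 CPM here, against 308 and then 253 CPM in control. None of the 4 steps between neighbouring times in this arm was called either, the largest being 0.32 from 3 to 6 hpa (SE 0.12, adjusted p = 0.248, 1.63% called). The others were 0.19 from 6 to 16 hpa (5.02% called), -0.29 from 16 to 24 hpa (2.2% called) and 0.15 from 24 to 48 hpa (2.93% called).

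Between the treatments *teneurin* passed the edgeR test at 0 of 6 times, with an unadjusted p under 0.05 at 1 of them, and DESeq2 also called 0 of 6. At 0 hpa, directly after amputation, the log2 difference between libraries labelled *equinox* RNAi and control was 0.08 (SE 0.13, adjusted p = 0.799, 1.42% of transcripts called). At 3 hpa it was 0.10 (SE 0.12, adjusted p = 0.594, 11.3% called). The libraries of both treatments overlapped at these times, and the 95% intervals of the difference were 0.885- to 1.26-fold and 0.906- to 1.27-fold.

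At 6 hpa the difference between *equinox* RNAi and control was 0.25 (SE 0.12, 1.19-fold, 95% interval 1.002 to 1.40, unadjusted p = 0.0476, adjusted p = 0.21), where 7.66% of transcripts were called. All 5 *equinox* RNAi libraries were higher than the control median, and none was higher than control replicate 5. This 1 library decided the call: without it the difference was 0.46 (SE 0.11) with an adjusted p of 0.00309, and the exact permutation test moved from an adjusted p of 0.389 to 0.0476. The other 4 control libraries reached at most 238 CPM, and the lowest *equinox* RNAi library held 271 CPM. The library that was left out is also the one that stood apart over all transcripts, and its part in the result beyond these values was not tested. The arms also differed in library quality at 6 hpa. Control libraries held 4691615 to 10741852 counts and *equinox* RNAi libraries 15753307 to 29363121. Mitochondrial transcripts took 0.368 to 0.652% and 0.264 to 0.346% of them. Neither range overlapped between the arms, so treatment cannot be told apart from these differences at 6 hpa, with or without control replicate 5.

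At 16 hpa, when both arms were highest, *equinox* RNAi differed from control by 0.09 on the log2 scale (SE 0.12, adjusted p = 0.9998, 0.606% of transcripts called). At 24 hpa the difference was -0.18 (SE 0.12, 0.883-fold, 95% interval 0.747 to 1.04, adjusted p = 0.793, 1.25% called). No *equinox* RNAi library at 24 hpa exceeded the control median and 3 of 5 lay below every control library, with an exact p of 0.0397 that became 0.238 over the 6 times. At 48 hpa the difference was 0.25 (SE 0.13, 1.19-fold, 95% interval 0.997 to 1.42, adjusted p = 0.17), where 17.5% of transcripts were called. Mitochondrial transcripts took 0.441 to 0.647% of counts in control and 0.341 to 0.445% in *equinox* RNAi libraries of 48 hpa. These ranges barely overlapped, and their part in the difference was not tested. In *teneurin*, 3 *equinox* RNAi libraries of 48 hpa were higher than every control library and 1 was lower than every control library. Without that low library, *equinox* RNAi replicate 4, the difference was 0.35 with an adjusted p of 0.0472. Of the 9 edgeR fits without 1 library at 48 hpa this 1 alone gave a call, and adjusted p reached 0.432 in the others. Neither the deviation over all transcripts nor the gap to the next library set *equinox* RNAi replicate 4 apart. Its deviation ranked 25 of 58, and its gap was 0.310 of the range of the group, below the critical value of 0.71. The next library, at 260 CPM, keeps this gap small. Replicate 4 also held the most counts of its group, 35840567.

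**Figure D2:**
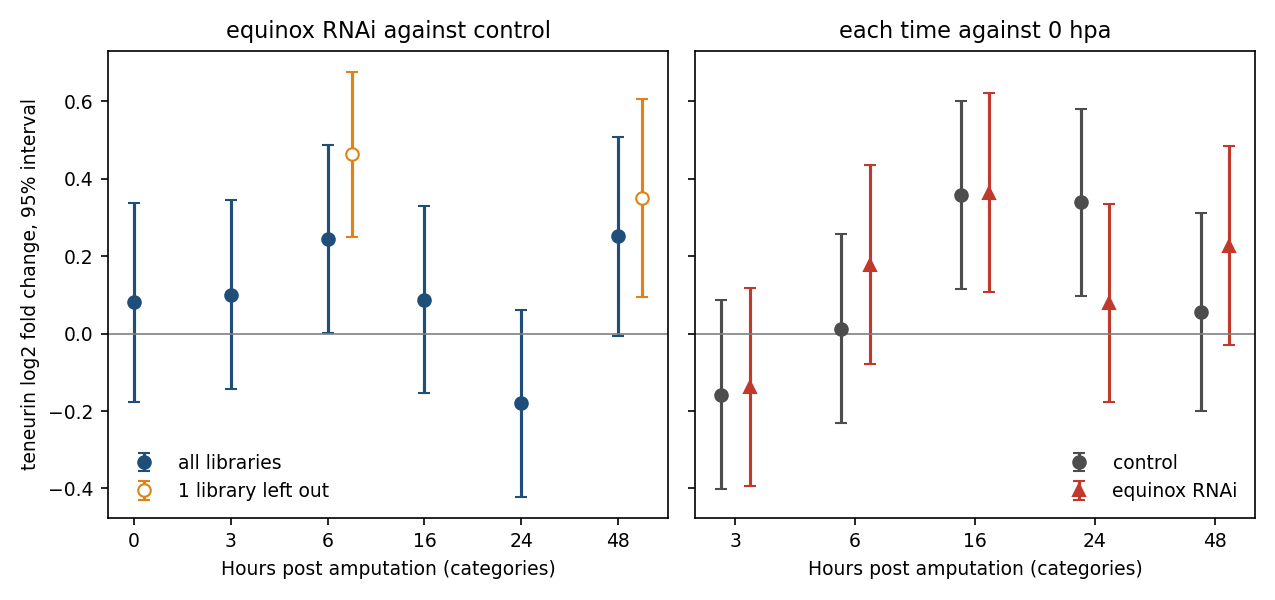
Log2 fold change of *teneurin* with its 95% interval from the edgeR fit (y axis) by hours post amputation (x axis, categories). Left, *equinox* RNAi against control with all libraries (filled) and, at 6 and 48 hpa, without control replicate 5 at 6 hpa or *equinox* RNAi replicate 4 at 48 hpa (open); right, each time against 0 hpa in control (circles) and *equinox* RNAi (triangles). The open points are the fits without 1 library in which the treatment difference was called. Fits in which leaving out a library lost a call are not drawn. With all libraries the treatment differences run from -0.18 to 0.25, and the change at 16 hpa is 0.36 in each arm, which passed the test in control and not in *equinox* RNAi (adjusted p = 0.0524).

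A test over all 6 times found no difference between the treatments (adjusted p = 0.181, 26.8% of transcripts called). The change from 0 hpa was then compared between the arms. The 0 hpa baseline of the *equinox* RNAi arm showed no lowered target on average (log2 difference from control 1.63). These interactions therefore compare the labelled arms and cannot isolate a loss of *equinox*. For 3, 6 and 16 hpa the changes of the 2 arms differed by 0.02, 0.16 and 0.01 on the log2 scale. For 24 hpa they differed by -0.26 (SE 0.18, adjusted p = 0.529) and for 48 hpa by 0.17 (adjusted p = 0.729). edgeR called 0 of these 5 interactions, with 0 at an unadjusted p under 0.05, DESeq2 called 0, and the shares of transcripts called were 0.00497%, 0.0894%, 0.0248%, 0.233% and 5.08%. The rise at 24 hpa in control alone was thus not shown to differ from the smaller value in *equinox* RNAi. The joint test of the interactions was not passed either (adjusted p = 0.391, 6.02% called). Without control replicate 5 at 6 hpa both joint tests were passed, with adjusted p of 0.00291 for the treatments and 0.0349 for the interactions.

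Ordered by mean, the 12 groups ran from *equinox* RNAi at 16 hpa (332 CPM) over control at 16 and 24 hpa and *equinox* RNAi at 48, 6, 24 and 0 hpa to control at 48, 6 and 0 hpa, *equinox* RNAi at 3 hpa and control at 3 hpa (218 CPM). The difference between neighbours in this order was at most 19.6 CPM, and each was smaller than the larger SD of the pair. Over the 12 group means *teneurin* had an SD of 0.19 and a range of 0.60 on the log2 scale, beside medians of 0.18 and 0.61 over 13065 transcripts with a mean of at least 50 counts. Its pooled SD between replicates was 0.19, beside a median of 0.21. In variability *teneurin* was thus near the middle of these 13065 transcripts. Its own mean was 4754 counts, and transcripts of similar count were not compared separately.

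Compared with the early wound-induced genes, *teneurin* took another course. The study's heat map of these samples gives 8 early wound-induced transcripts by number, and their own rise is no independent evidence. At 3 hpa 7 of the 8 rose in control wounds, with a median log2 fold change of 0.71 (all 20129 tested: -0.01) and 1.54% of tested transcripts called higher, while *teneurin* stood at -0.16. The strongest, dd_Smed_v6_4392_0_1, rose by 2.17 (SE 0.14, adjusted p = 4.81e-17). In the libraries labelled *equinox* RNAi 7 of 8 rose as well at 3 hpa, with a median of 0.81 and 0.979% called higher, while *teneurin* stood at -0.14.

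At 6 hpa 6 of the 8 early transcripts were higher than at 0 hpa in control (median 0.70, 5.21% of transcripts called higher), and 4 of 8 in *equinox* RNAi (median 0.43, 3.15% called higher). At 16 hpa 7 were higher and 1, dd_Smed_v6_10923_0_1, was lower in control (median 0.65, with 9.23% called higher and 9.26% lower), and 5 were higher in *equinox* RNAi (median 0.56, 6.13% called higher). In control wounds this was the 1 time at which *teneurin* and most of the list were called higher together. At 24 hpa the list's median was 0.17 in control, below the 0.34 of *teneurin*, and 3 members were higher and 1 lower (15.3% of transcripts called higher and 17.8% lower). Over the 12 group means Pearson's r between *teneurin* and the list's mean profile was -0.39, and the members lay between -0.58 and 0.19. These are descriptions over 12 means that share libraries, scaling and time points.

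**Figure D3:**
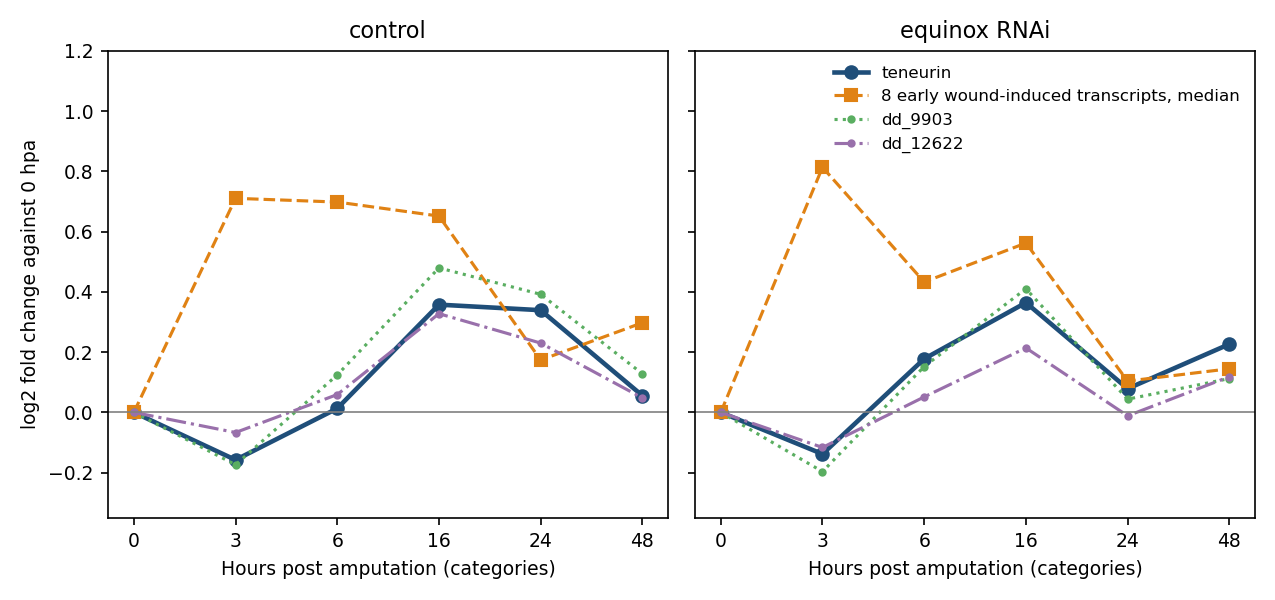
Log2 fold change against 0 hpa (y axis) by hours post amputation (x axis, categories) in control (left) and *equinox* RNAi (right). Solid line, *teneurin*; dashed line, median of 8 early wound-induced transcripts; dotted and dash-dotted lines, the transcripts most like *teneurin*. The early list is at 0.71 and 0.81 at 3 hpa, when *teneurin* is at -0.16 and -0.14, and *teneurin* is highest at 16 hpa with 0.36 in each arm.

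Between the treatments the early transcripts had a median of -0.13 at 0 hpa, beside 0.08 for *teneurin*. At 3 hpa 1 of the 8 was lower in *equinox* RNAi (5.55% of transcripts called lower), with a median of -0.05, beside 0.10 for *teneurin*. At 48 hpa 5 of the 8 early transcripts were lower in *equinox* RNAi (9.46% of transcripts called lower) and 1, dd_Smed_v6_4392_0_1, was higher (8.07% called higher), with a median of -0.32, whereas *teneurin* stood at 0.25. At 6 hpa 2 of 8 were lower (3.96% called lower), with a median of -0.23, beside 0.25 for *teneurin*. At 16 hpa 1 of 8 was lower (0.298% called lower), with a median of -0.21, beside 0.09 for *teneurin*. At 24 hpa 2 of 8 were lower (0.671% called lower), with a median of -0.28, and *teneurin*, at -0.18 and not called, had the same sign as the list's median at this time alone. These comparisons use the same libraries, and the difference between list and *teneurin* was not tested.

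*bmp4*, a signal that patterns the dorsal-ventral axis, and the posterior position control genes (PCGs), which mark positional information, give a scale for what the test called at 48 hpa. *bmp4* was lower in *equinox* RNAi, at -0.89 on the log2 scale (SE 0.19, adjusted p = 0.000501), where *teneurin* stood at 0.25 and was not called. The posterior PCG dd_Smed_v6_13735_0_1 was higher by 2.27 (SE 0.14, adjusted p = 4.42e-18) and the other, dd_Smed_v6_9831_0_1, by 0.39 (SE 0.06, adjusted p = 2.14e-06). Among transcripts within 0.5 of the mean log2 CPM of *teneurin*, the smallest called change at 48 hpa was 0.19, less than the 0.25 of *teneurin*. That value is the lowest over all called transcripts in this window. It is no limit above which a change of *teneurin*, with its SE of 0.13, would be called. In control wounds dd_Smed_v6_13735_0_1 was also called higher than at 0 hpa at 16 hpa (0.98) and 24 hpa (0.47), as *teneurin* was, and was lower at 48 hpa (-1.41). Over the 12 group means Pearson's r and Spearman's rho with *teneurin* were 0.58 and 0.83 for dd_Smed_v6_13735_0_1, 0.47 and 0.53 for dd_Smed_v6_9831_0_1 and 0.34 and 0.42 for *bmp4*, and Pearson's r was -0.27 for *equinox*.

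The transcripts whose group means followed those of *teneurin* most closely among 13064 were dd_Smed_v6_9903_0_1 (Pearson's r 0.97, Spearman's rho 0.99) and dd_Smed_v6_12622_0_1 (0.97 and 0.95). Both are named by number only. Over the 58 single libraries their correlations with *teneurin* were 0.69 and 0.65, which ranked 299 and 527 among the 13064. The closest transcripts by that measure were others, dd_Smed_v6_3378_0_1 (0.90) and dd_Smed_v6_3880_0_1 (0.89), named here after their values were seen, so the names depend on the measure of likeness. At 16 hpa dd_Smed_v6_9903_0_1 stood at 0.48 against 0 hpa in control and at 0.41 in *equinox* RNAi, and dd_Smed_v6_12622_0_1 stood at 0.33 and 0.21. Between the treatments at 48 hpa they stood at 0.16 and 0.22. Both were chosen by these same group means, so their course is a description and is no support for that of *teneurin*.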

How the data were processed

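Poly-A libraries were trimmed with cutadapt 1.8 and mapped with Bowtie 1.2 per the labels, and the authors deposited raw counts per dd_Smed_v6 transcript, summed over contigs, without normalization. Tables of the authors' own comparisons were not used. All 58 columns were placed by title, and no column was left unmapped. No pair of replicates agreed within sampling noise. Counts were tested in 1 edgeR 4.0.16 fit (R 4.3.3) of 12 groups, quasi-likelihood, robust, TMM, after filterByExpr with a minimum count of 10, which kept at least 99.87% of each library's counts. Adjusted p is that of Benjamini-Hochberg over 20129 transcripts, with a threshold of 0.05. Exact permutation tests used log2 CPM with a prior count of 2. Alternatives were DESeq2 1.42.0, RLE factors, library totals, no filter, other samples in the fit, a block for the replicate number, moving or leaving out the 5 libraries whose labels differ in time, no robust step and each library left out. The test was also run on simulated counts, whose outcome is not given here, so that run is no support for these results. The transcript, the lists and the rule for named genes (those the study numbers, plus the 2 most like *teneurin* by Pearson's r over 12 group means) were chosen with earlier results of these data known. Whether equal replicate numbers pair the samples was checked by correlating their deviations from the group means (14135 transcripts). All pairs exceeded 0.1 in 2 comparisons of 16, *equinox* RNAi against control at 16 hpa and *equinox* RNAi at 16 against 0 hpa. The pairing comes from these values, since the labels name no shared batch. The transcript sequence comes from the supplementary sequences of the study. Mitochondrial transcripts of the methods took 0.264 to 0.652% of counts.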

Additional observations from a re-analysis of the deposited data

Results flagged for a closer look

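Control replicate 5 at 6 hpa held 384 CPM of *teneurin*, while the next of the 5 libraries held 238 CPM. The gap was 0.727 of the range of the group, above the critical value of 0.71 for 5 values, and chance gives such a gap in about 1 of 20 groups. It was the single gap of this kind among the 12 groups. The library had 5615786 counts in all and 0.438% of them on mitochondrial transcripts, both inside the range of the other libraries, and its deviation over all transcripts ranked 1 of 58. The cause was not tested.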

How the results depend on the processing

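Of 1025 alternative values over 49 results for *teneurin*, 948 kept direction and side of the threshold, 15 lost a call, 21 gained one and 41 changed sign, all of the last at values that were not called. The calls at 16 and 24 hpa in control held under all 10 alternatives other than leaving out single libraries.

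Values below are log2 fold changes unless named as p. With library totals alone, the median over all transcripts shifted by -0.16 for *equinox* RNAi against control at 3 hpa, by -0.14 for 6 against 3 hpa in control, by 0.10 for 48 against 24 hpa in control and by -0.14 for the interaction at 3 hpa. *teneurin* at 3 hpa between treatments then read -0.072 (exact test -0.072), or 0.070 relative to that median. Other sign changes with library totals were 6 against 0 hpa in control (-0.038) and the interactions at 3 hpa (-0.14) and 16 hpa (-0.0052). Calls gained with library totals were 16 against 6 hpa in control (0.40), 16 against 0 hpa in *equinox* RNAi (0.36, exact test 0.35) and, in the exact test, 3 against 0 hpa in *equinox* RNAi (-0.19). With no filter, 6 against 0 hpa in control read -0.00088, the interaction at 16 hpa -0.013, and 16 against 6 hpa in control was called (0.38). DESeq2 and RLE size factors turned 24 against 16 hpa in control to 0.0040 each and the interaction at 3 hpa to -0.0067 and -0.0069, and DESeq2 called 16 against 0 hpa in *equinox* RNAi (0.37). A fit of only the groups compared also called that rise (0.37) and turned the interaction at 3 hpa (-0.0087).

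With the replicate block in the fit of all groups, 16 against 0 hpa in *equinox* RNAi (0.38) and 16 against 6 hpa in control (0.36) were called, and 6 against 0 hpa in control read -0.0013. With the replicate block in a fit of the groups compared these were 0.41, 0.39 and -0.031, and the interaction at 3 hpa read -0.024. The block changed no other call. With the 5 libraries that have differing times placed by their time field, 3 against 0 hpa in *equinox* RNAi read 0.042, and the test over all times in *equinox* RNAi had an adjusted p of 0.151. Without these libraries that p was 0.185 and the interaction at 16 hpa read -0.038. The cause of these changes was not tested.

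Leaving out each library in turn gave, between treatments, 0.035 to 0.13 at 0 hpa, 0.055 to 0.15 at 3 hpa, 0.16 to 0.46 at 6 hpa (exact test 0.20 to 0.47), 0.039 to 0.13 at 16 hpa and 0.19 to 0.35 at 48 hpa. Against 0 hpa in control it gave -0.20 to 0.10 at 6 hpa (exact test -0.21 to 0.061), 0.31 to 0.40 at 16 hpa (exact test 0.31 to 0.40), 0.29 to 0.38 at 24 hpa (exact test 0.29 to 0.38) and -0.027 to 0.14 at 48 hpa (exact test -0.028 to 0.11). The control steps ran from -0.046 to 0.26 for 6 against 3 hpa, 0.25 to 0.56 for 16 against 6 hpa and -0.057 to 0.018 for 24 against 16 hpa. For *equinox* RNAi at 16 hpa the change was 0.32 to 0.41. The interactions ran from -0.026 to 0.073 at 3 hpa, 0.074 to 0.38 at 6 hpa, -0.042 to 0.052 at 16 hpa and 0.10 to 0.27 at 48 hpa, with no call. Adjusted p ran from 0.0041 to 0.053 for time in *equinox* RNAi, 0.0029 to 0.29 for the treatments over all times and 0.035 to 0.54 for the joint interaction. The exact tests at 16 and 24 hpa in control lost their call without control replicate 1 or 2 at 0 hpa (adjusted p = 0.0529 each). Every 16 and 24 hpa library was still higher than every 0 hpa library that remained, so the lost call does not reflect an overlap of the groups.

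Counts of all transcripts called moved by over 1.5 times in 149 of 825 alternatives. Between treatments, the 286 calls at 0 hpa moved to between 98 and 519, the 2282 at 3 hpa to between 682 and 6189, the 1541 at 6 hpa to between 46 and 2841, the 122 at 16 hpa to 413, the 251 at 24 hpa to between 153 and 156, and the 3528 at 48 hpa to between 1506 and 2126. In control against 0 hpa, the 639 at 3 hpa moved to between 345 and 2851 and the 1798 at 6 hpa to between 252 and 1057, while those at 16, 24 and 48 hpa did not move by this much. Of the control steps, the 1917 for 6 against 3 hpa moved to between 0 (a fit of only these groups) and 2880, the 2421 for 16 against 6 hpa to 712, the 786 for 24 against 16 hpa to between 353 and 2120 and the 1133 for 48 against 24 hpa to between 219 and 706. In *equinox* RNAi against 0 hpa, the 275 at 3 hpa moved to between 11 and 183, the 1090 at 6 hpa to 718, the 2452 at 16 hpa to 4144 and the 1350 at 48 hpa to between 234 and 895. Its steps moved from 329 to between 16 and 218, from 1011 to between 88 and 660, from 443 to between 43 and 288 and from 590 to between 8 and 940, in order of time. Interaction calls at 3 to 24 hpa, from 1 to 47, moved to between 0 and 107, and the 1022 at 48 hpa to 513. The shares of transcripts called that stand beside *teneurin* move with these counts. At the depth of *teneurin*, with at least 331 counts per library, the spread between replicates rather than counting limits these comparisons.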
